A study of Saccharomyces cerevisiae with 3 samples.

Results

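Phosphate regulon genes were examined on yeast arrays, 10 genes with 1 probe set each of 5498 probe sets annotated to Saccharomyces cerevisiae. They were taken by gene symbol in the platform annotation; the rule uses no measured value, but it was set with earlier results of these data known. PHO5, PHO8, PHO84, PHO89, PHO81, PHM6, SPL2, VTC1 and VTC3 are induced when phosphate is scarce (9 genes), and PHO90 is constitutive. The baseline RNA came from a W303 strain of mating type MAT-alpha that carries cdc15-2, a temperature-sensitive allele of a mitotic exit kinase, and had grown in minimal media in a fermentor at 23 °C to 340 minutes past its release from the restrictive temperature. The share of spike was 0% in the baseline array, 1% in another (99% baseline) and 10% in the last (90% baseline). The nature of the spike is not stated in the labels, and no label names a phosphate-starved culture. No label says whether the arrays shared an RNA preparation, and the phosphate content of the medium is not given in the sources used here. Each group was 1 array, which leaves every difference without a replicate check, and no p-value is given.

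Yeast senses phosphate through the PHO pathway. When phosphate is plentiful, the cyclin Pho80 and the kinase Pho85 phosphorylate the transcription factor Pho4 and keep it out of the nucleus. When phosphate is scarce, the inhibitor Pho81 acts on this kinase, Pho4 enters the nucleus with its partner Pho2, and genes for phosphate uptake, release and storage are transcribed. Inositol pyrophosphates and proteins with SPX domains carry the phosphate signal.

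Values are log2 expression values from robust multi-array average (RMA), which equalizes the distributions of the arrays, so a change shared by most of the RNA cannot show. The median of the S. cerevisiae probe sets was 10.81, 10.82 and 10.84 in the baseline, 1% and 10% arrays. Background was read from 42 probe sets of the bacterial poly-A controls (thr, trp, phe, lys and dap), whose 95th percentile was 5.36, 5.36 and 5.33 in the same order. The mating type in the labels was checked with markers. The 4 alpha-specific genes (MF(ALPHA)1, MF(ALPHA)2, STE3 and SAG1) ran from 13.75 to 14.64 in the baseline array, and the 6 a-specific genes (STE2, MFA1, MFA2, BAR1, AGA2 and STE6) from 9.10 to 10.99. Cells of the alpha type repress a-specific genes; none of the 6 was at background here. A probe set has its own affinity, so an order of levels below is an order of signals and not of RNA amounts. The RNA came from a bulk culture, in which fewer cells carrying a transcript and less of it per cell cannot be told apart.

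By the median and the lower quartile of the S. cerevisiae probe sets, the 9 starvation-induced genes fell into a bright and a dim set. VTC1, VTC3, PHO8 and PHO81 lay above the S. cerevisiae median in every array, whereas PHO89, PHO5, PHO84, PHM6 and SPL2 lay below the lower quartile of 9.79 in every array. None lay between. The constitutive PHO90 lay with the bright set. From high to low in the baseline array, the order was VTC1, PHO8, PHO90, VTC3, PHO81, PHO89, PHO5, PHO84, PHM6 and SPL2, and the 1% and 10% arrays had the same order. Without replicates, no spread is available to say which neighbours in this order differ; PHO8 and PHO90 were 0.047 apart. All 10 genes were above the 95th percentile of the poly-A controls in all 3 arrays, as were 98.5% of the S. cerevisiae probe sets. By the highest of these controls 8 genes stayed above in all 3 arrays, all but PHM6 and SPL2 (96.0% of the S. cerevisiae probe sets). By the 95th percentile of 1747 probe sets whose symbol matched no single S. cerevisiae gene by identifier, it was 9, all but SPL2 (96.5%). The 6 a-specific genes, which alpha cells repress, also passed each of these limits in all 3 arrays. Passing a limit therefore does not show that a gene is expressed. In the baseline array the dim set lay below STE6, the lowest of the 6, at 9.10. MFA1, the highest of the 6, was at 10.99 there, above PHO81 of the bright set at 10.86.

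**Figure D1:**
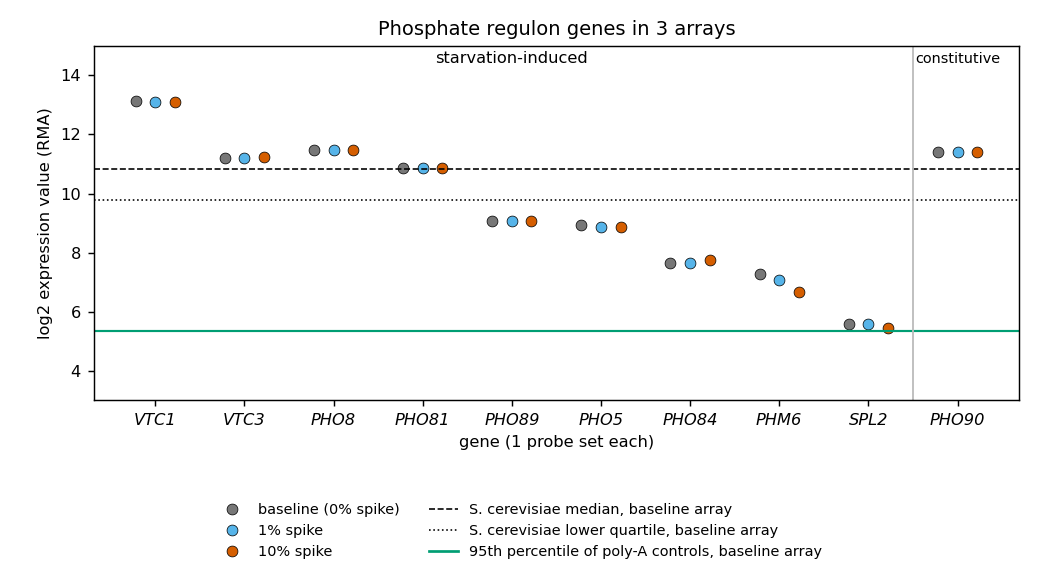
Log2 expression values of the 10 phosphate regulon genes (vertical axis) in the baseline, 1% spike and 10% spike arrays, with 1 point per array and no error bars because each group is 1 array. VTC1, VTC3, PHO8, PHO81 and the constitutive PHO90 sit above the dashed S. cerevisiae median and the other 5 below the dotted lower quartile; SPL2 sits just above the green line of the controls, and the PHM6 point of the 10% array is lower than its points of the other 2 arrays.

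Among the phosphate transporters, PHO84 encodes the high-affinity proton symporter that takes up phosphate during starvation. It was at 7.66, 7.66 and 7.75 in the baseline, 1% and 10% arrays, and 5.8%, 5.9% and 6.5% of the S. cerevisiae probe sets lay below it. Its values in the baseline and 1% arrays were identical and the 10% array was higher by 0.084. PHO89, the sodium-coupled high-affinity transporter, was at 9.06 in all 3 arrays, with 14.0%, 14.1% and 14.3% of probe sets below it. PHO90, a low-affinity transporter that is made also when phosphate is plentiful, was at 11.42 in all 3 arrays, and 64.6%, 64.5% and 64.0% of probe sets lay below it. The high-affinity transporters had dim probe sets in these arrays and the low-affinity transporter a bright one.

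PHO5 encodes the secreted acid phosphatase that releases phosphate from organic compounds outside the cell. It was at 8.95, 8.87 and 8.87 in the baseline, 1% and 10% arrays. Both spiked arrays were lower than the baseline array, by the same amount (difference -0.080). PHO8, the alkaline phosphatase of the vacuole, was at 11.46 in all 3 arrays. Close relatives of PHO5 were read beside it. PHO3, the acid phosphatase gene next to PHO5 in the gene order of assembly R64 and not induced by phosphate starvation, was at 12.37 in all 3 arrays. PHO11, another starvation-induced acid phosphatase gene, was at 9.89, 9.89 and 9.96, and the suffix of its probe set marks a match to several transcripts; PHO12 had no probe set under its own name here. DIA3, a relative of the acid phosphatases, was at 9.11 in all 3 arrays. These genes are close copies and the probe sequences were not used here, so shared signal between them cannot be told apart from each gene's own.

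VTC1 and VTC3 encode subunits of the vacuolar transporter chaperone complex, which makes polyphosphate and places it in the vacuole. VTC1 was at 13.12, 13.11 and 13.11 in the baseline, 1% and 10% arrays, and about 91% of the S. cerevisiae probe sets lay below it (91.0%, 90.9% and 90.8%). The spiked arrays were each lower by 0.010 (difference -0.010). VTC3 was at 11.20, 11.22 and 11.23, with a difference of 0.018 at 1% and of 0.033 at 10%. VTC4, the catalytic subunit, was at 12.11, 12.14 and 12.22, and VTC2, the alternative to VTC3 in the complex, was at 11.95, 11.95 and 11.96. These 4 subunit genes were bright, and none differed by more than 0.11 between arrays; VTC5, a further subunit gene, had no probe set under its name here.

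PHO81 encodes the inhibitor of the Pho80-Pho85 kinase and is itself a target of Pho4. It was at 10.86, 10.86 and 10.85 in the baseline, 1% and 10% arrays, and the 10% array differed by -0.012 from both others. SPL2, a small protein that lowers low-affinity phosphate uptake, was the dimmest of the 10 genes. Its values were 5.58, 5.59 and 5.46, which is 0.22, 0.23 and 0.13 above the 95th percentile of the controls in the same arrays. These values were below the highest single control, which was at 6.32, 6.32 and 6.84, so the SPL2 level is close to background and its difference of -0.115 at 10% is a difference between near-background values.

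PHM6, a small protein of unknown function whose gene responds to phosphate, had the largest difference of the 10 genes. It was at 7.28, 7.09 and 6.68 in the baseline, 1% and 10% arrays, so it was lower at each step. On the linear scale these are signals of 156, 136 and 102. The difference from the baseline array was -0.191 at 1% and -0.605 at 10%, and that of the 10% over the 1% array was -0.414. The signal at 10% was thus 0.657 times that of the baseline array, and at 1% it was 0.876 times. By the labels, baseline RNA made up 99% of the 1% sample and 90% of the 10% sample. Both PHM6 ratios were below these shares. Whether the share of spike set the PHM6 steps was not tested. PHM6 was the 1 gene of the 10 that was lower at each step, against 7.13% of the S. cerevisiae probe sets, and VTC3 the 1 that was higher at each step, against 14.8%. By 10% over baseline PHM6 ranked 12th from the lowest of 5498, and by 1% over baseline 17th.

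At the 1.5-fold limit (0.585 on the log2 scale), PHM6 was 1 of 10 phosphate regulon genes lower in the 10% array than in the baseline array, against 0.218% of the S. cerevisiae probe sets (12 of 5498), and 0 of 10 were higher, against 0.0364%. PHM6 passed this limit by 0.02 and did not reach 2-fold. It was no longer past it, at -0.576, once the trend of differences over level was taken off by loess. Of the 8 genes above the highest poly-A control in all 3 arrays, 0 reached 1.5-fold, and PHM6 was not among them. It failed that filter only in the 10% array (6.68 against 6.84). The filter thus removed PHM6 for its low value there, and this 0 is no check of its difference. In 1% over baseline and in 10% over 1%, 0 of 10 reached 1.5-fold in either direction; among all S. cerevisiae probe sets 0.0% did so at 1% over baseline in each direction, and for 10% over 1% it was 0.127% lower and 0.0182% higher.

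PHM6 lay in a range of levels where many probe sets were lower in the 10% array. Of the 118 other S. cerevisiae probe sets within 0.5 of its mean level, 15.3% were lower by 0.3 or more at 10% and 0.847% were higher by as much. Their median difference was -0.087, against 0 for all S. cerevisiae probe sets. Among these 118, 1 was as low as PHM6 or lower. PHM6 also has the shortest coding sequence of the 10 genes, with 315 bases. Over all levels, 4.0% of the 550 other probe sets for coding lengths up to 450 bases were lower by 0.3 or more, against 1.25% of the 4947 longer ones. Within 0.5 of the PHM6 level, the shares were 11.4% of 35 short genes and 16.9% of 83 longer genes. As low as PHM6 or lower were 6 of the 550 short and 5 of the 4947 longer over all levels. Within 0.5 of the PHM6 level it was 1 of the 35 and 0 of the 83. SPL2 (447 bases) and VTC1 (390 bases) are also short, and their differences at 10% were -0.115 and -0.010. The part of level and length in the PHM6 difference was not tested.

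**Figure D2:**
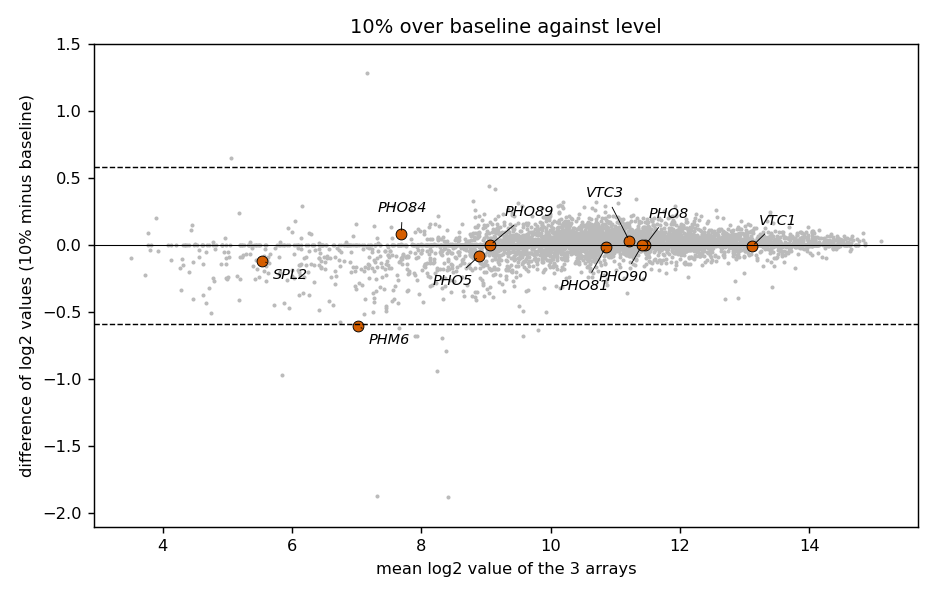
Difference of log2 values, 10% minus baseline, against the mean log2 value of the 3 arrays, for 5498 S. cerevisiae probe sets (grey) and the 10 phosphate regulon genes (orange, named); dashed lines mark 1.5-fold. The grey points spread further below 0 than above it at low levels, where PHM6, at -0.605, lies just past the lower line, and the other 9 genes lie near 0.

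The other 9 genes differed little between the arrays. In 10% over baseline their differences ran from -0.115 (SPL2) to 0.084 (PHO84), all inside the range of -0.23 to 0.17 that held 95% of the S. cerevisiae probe sets. Over all 10 genes, 2 were higher, 5 were lower and 3 were identical to 3 decimals, with a median of -0.005. Among all S. cerevisiae probe sets 45.1% were higher, 27.2% lower and 27.7% identical, with a median of 0. In 1% over baseline, 2 were higher, 3 lower and 5 identical, against 22.6% higher, 14.5% lower and 62.9% identical among all S. cerevisiae probe sets. PHM6 and PHO5 were the 2 genes below the 95% range of that comparison, which ran from -0.064 to 0.066, a side on which 2.49% of the S. cerevisiae probe sets lay; 0 genes lay above it, where 2.46% lay. In 10% over 1%, PHM6 alone lay below the 95% range, where 2.51% of the S. cerevisiae probe sets lay, and 0 genes lay above it, where 2.42% lay. The PHO5 difference of -0.080 is small, and it was 0 between the 10% and the 1% array. PHO8, PHO89 and PHO90 were identical in all 3 arrays, 3 of 10, against 25.9% of the S. cerevisiae probe sets. The median polish step of RMA can return exactly equal values with few arrays. The 3 comparisons share arrays, so their values are not independent.

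**Figure D3:**
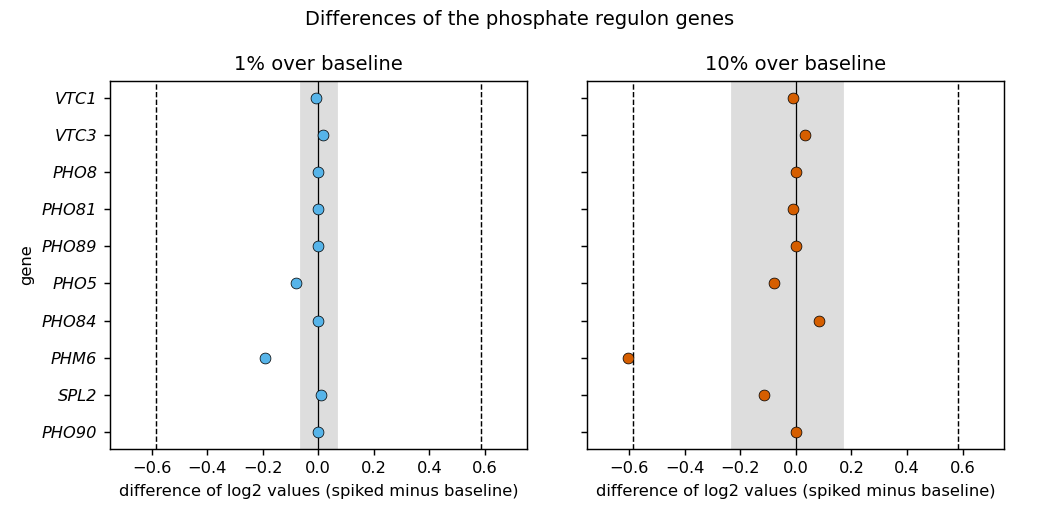
Differences of log2 values from the baseline array for the 10 phosphate regulon genes, at 1% spike (left) and 10% spike (right); the grey bands hold 95% of the S. cerevisiae probe sets and dashed lines mark 1.5-fold. PHM6 lies outside the band in both panels, at -0.191 and -0.605, and PHO5 lies just outside it at 1% only.

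The gene pattern most like that of PHM6 was sought over all S. cerevisiae probe sets, by Euclidean distance in the 1% and 10% over baseline differences, that is over 3 arrays. The nearest were CTF8, YHL009W-B and YMR158C-A, at distances of 0.083, 0.107 and 0.111. CTF8, a subunit of a clamp loader used in sister chromatid cohesion, was at 10.05, 9.94 and 9.42 in the baseline, 1% and 10% arrays. YHL009W-B was at 8.59, 8.46 and 7.90, with a probe set that matches several transcripts, and YMR158C-A at 8.17, 8.06 and 7.49. None of the 3 is on the phosphate lists.

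The remaining genes of the pathway were read from 4 lists, of which 40 of 43 genes had a probe set. Like the 10 genes, the lists were chosen with earlier results of these data known. Among Pho4 targets, 20 of 21 were measured. In 10% over baseline 7 were higher, 8 lower and 5 identical, the median was 0, and PHM6 was the only gene at or past 1.5-fold. CTF19, a kinetochore gene next to VTC3 in the R64 gene order, was at 7.26, 7.28 and 7.01 in the baseline, 1% and 10% arrays. Its difference of -0.247 at 10% lay below the 95% range, and its level lay in the same dim range as that of PHM6. VTC4 differed by 0.110, PPN1, a polyphosphatase gene, by 0.082 and PHO11 by 0.069.

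Among regulators and inositol pyrophosphate enzymes, all 12 were measured, with 6 higher, 4 lower and 2 identical in 10% over baseline and a median of 0.0035. None reached 1.5-fold. ARG82 is an inositol polyphosphate kinase gene whose product also regulates arginine genes. It was at 9.19, 9.11 and 8.83 in the baseline, 1% and 10% arrays, lower at each step, with a difference of -0.355 at 10%. Its signal was 0.951 times that of the baseline array at 1% and 0.782 times at 10%. These ratios too were below the baseline shares of 99% and 90%, and the part of the spike was not tested. IPK1, which encodes the kinase making inositol hexakisphosphate, was at 8.94, 8.90 and 8.83, a difference of -0.108. PLC1, the phospholipase C gene that starts this route, differed by 0.093. PHO80, DDP1 and SIW14 tied for the next place at 0.048. Of the core switch, named for its role after its values were seen, PHO85 was at 11.74 in all 3 arrays, PHO4 differed by 0.029 and PHO2 by 0.007 at 10%.

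Of the transporter genes that Pho4 does not induce, 5 of 5 were measured and all lay above the S. cerevisiae median in every array. PHO87, the closest relative of PHO90, was at 11.10, 11.13 and 11.14 in the baseline, 1% and 10% arrays. PHO91, the related transporter of the vacuole, was at 12.26, 12.26 and 12.30. SYG1 was at 12.14 in all 3 arrays. PHO88, listed as SND3 in the R64 table, differed by -0.066 at 10%. It is known for protein targeting to the endoplasmic reticulum but is counted with the transporters of this list. No gene of this list differed by more than 0.1 in any comparison. In the baseline array, 5 of the 9 starvation-induced genes described singly lay below the lower quartile, against 0 of 5 of the transporters not induced. Over the whole list of Pho4 targets, which includes these 9 genes, it was 8 of 20. Among the other 11 targets on that list it was 3, and among all S. cerevisiae probe sets 1375 of 5498. The dim share of the 9 genes was thus not shared by the other targets.

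Of the other phosphatases and polyphosphate enzymes, 4 of 6 were measured. PHO3, PHO13, a phosphatase of metabolic side products, and DIA3 were identical in all 3 arrays, and PPX1, the cytosolic exopolyphosphatase gene, was at 11.56, 11.56 and 11.44 in the baseline, 1% and 10% arrays, a difference of -0.119. Over all 40 measured genes, 33 lay within 0.1 of the baseline array at 10% (82.5%, against 82.7% of the S. cerevisiae probe sets). PHM6, ARG82 and CTF19 were the 3 that lay below the 95% range at 10%, where 2.51% of the S. cerevisiae probe sets lay. No gene of the 40 lay above the range, where 2.47% of the S. cerevisiae probe sets lay.

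**Figure D4:**
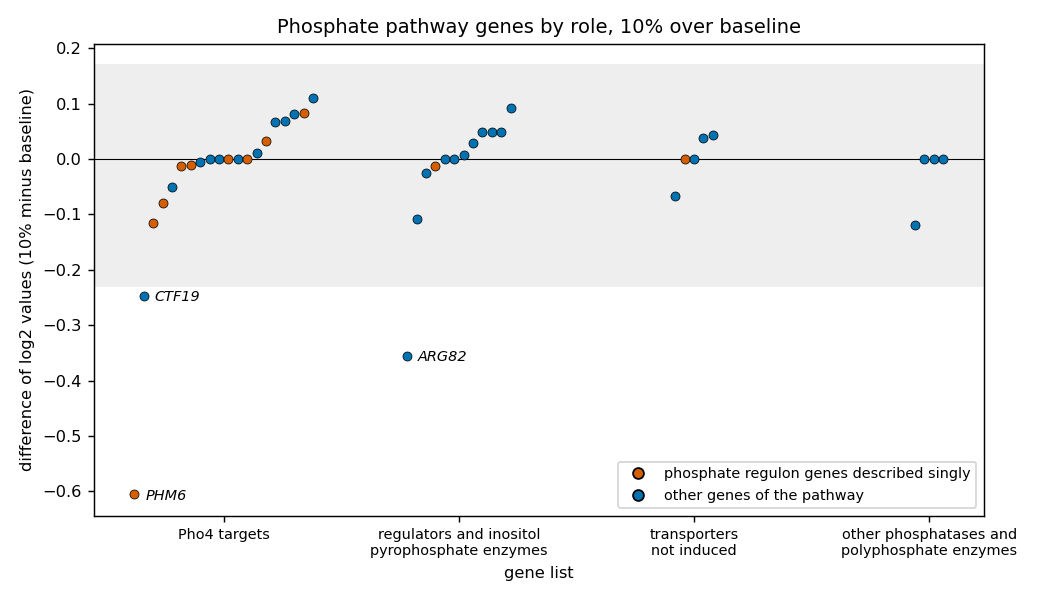
Differences of log2 values, 10% minus baseline, for the measured genes of 4 phosphate pathway lists, each point 1 probe set; orange points are the 10 genes described singly, PHO81 appears in 2 lists, and the grey band holds 95% of the S. cerevisiae probe sets. PHM6 at -0.605, ARG82 at -0.355 and CTF19 at -0.247 lie below the band and no gene lies above it.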

How the data were processed

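Total RNA of 3 yeast samples was measured on arrays. Each array has 1 deposited log2 value for each probe set, made by the authors with RMA, per the submitters' processing notes. The log2 base is inferred from RMA's usual output and the range of the values; the sources used here give no RMA version and do not say which arrays were normalized together. The number of arrays limits the precision.

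From the deposited values, differences of log2 values were rounded to 3 decimals and counted at or past 1.5-fold (2-fold as an alternative). Of 10928 probe sets, 166 were controls; 5498 were S. cerevisiae by gene identifier in assembly R64, and these were the background for every share. Gene lengths there are multiples of 3 for 96.8% and are called coding lengths. Counting was tested on simulated data. Tools were Python 3.11.15, pandas 2.3.3 and statsmodels 0.14.6. Alternatives were quantile normalization over again, centring, loess and other background limits. All 10 genes are named; of each list the 4 others with the largest difference, and relatives of the 10, are named. The genes and lists were chosen with earlier results of these data known.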

Additional observations from a re-analysis of the deposited data

How the results depend on the processing

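The count of phosphate regulon genes at or past 1.5-fold in 10% over baseline was 1 (PHM6). It was 0 with the loess trend over level removed, where PHM6 was at -0.576, and 0 at the 2-fold limit. It was 1 after quantile normalization over again (PHM6 at -0.605) and with arrays centred on the S. cerevisiae median (PHM6 at -0.631). A filter at the 95th percentile of the poly-A controls removed none of the 10 genes and so could not move a count. With a filter at the highest poly-A control, chosen after seeing the data, 8 genes were left without PHM6 and SPL2, and the count was 0. PHM6 failed this filter only through its low value in the 10% array, so that 0 is no check of its difference. The counts of 0 in the other comparisons did not move under these alternatives. The median difference of the 10 genes was -0.005 and ran from -0.035 to -0.005, while the median of all S. cerevisiae probe sets ran from -0.026 to 0. Of the 7 genes with a difference other than 0 at 10%, none turned its sign under the 3 other scalings. PHO8, PHO89 and PHO90, identical as deposited, took values from -0.031 to 0.004 there, and no gene moved by more than 0.04. Above background in all 3 arrays were 10 genes by the 95th percentile of the poly-A controls. It was 9 (all but SPL2) by that of probe sets whose symbol matched no single S. cerevisiae gene by identifier. By the highest control it was 8 (all but SPL2 and PHM6). The low signals of SPL2 and PHM6 limit their values. No paired analysis was possible because each group is 1 array.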
